A study of Mus musculus with 12 samples.

Results

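The genes described here are the ligands and receptors of axon guidance, chosen as the rows of the count table whose names belong to the semaphorins, plexins, neuropilins, ephrins, Eph receptors, Slits, Robo receptors, netrins and Unc5 receptors. Of the 12975 genes in the files, 58 met this rule. They comprised 18 semaphorins, 9 plexins, 2 neuropilins, 7 ephrins, 11 Eph receptors, 3 Slits, 2 Robo receptors, 2 netrins and 4 Unc5 receptors. The rule used names and no measured value, but it was set with earlier results of these data known.

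RNA bound to ribosomes was measured in the muscularis of the small intestine, the peeled smooth muscle layers with the adherent myenteric plexus. All mice were of the PLPCreERT2 Rpl22HA strain and received tamoxifen, given as 2 intraperitoneal injections of 100 µl at 15 mg/ml at 10 to 12 weeks of age, and were killed 3 to 4 weeks after the first injection. The inducible Cre, directed to enteric glia but active in any cell that uses its promoter, switches the ribosomal protein Rpl22 to an HA-tagged form, so anti-HA antibody precipitates the ribosomes of recombined cells. Mice were naive (T0, 3 animals, numbered 1, 2 and 4) or had their bowel manipulated 3 h earlier (T3, again 3 animals, numbered 1, 3 and 4). Manipulation was done under anaesthesia after opening the abdomen, and no sham-operated animals were among the samples, so the effects of anaesthesia, surgery and handling of the bowel cannot be told apart. The homogenate of each animal was split between anti-HA and a mouse IgG1 isotype control, which gave 4 groups of 3 libraries: HA T0, IgG T0, HA T3 and IgG T3.

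Semaphorins act through plexins, and the secreted class 3 members mostly need the neuropilins Nrp1 or Nrp2 as co-receptors. Ephrins are bound to the membrane, the A class by a lipid anchor and the B class by a transmembrane segment, and signal to Eph receptor tyrosine kinases on neighbouring cells. Slits bind Robo receptors, and netrins bind Dcc, neogenin and the Unc5 receptors. These systems steer growing axons in development, and in adult tissue they also act on glia, vessels, immune cells and muscle.

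Values are unique molecular identifier (UMI) counts of the 3′ end of each transcript, given here as CPM, the count per 1000000 counts of the library. Totals were 1221788 to 2870591 counts in the HA libraries, 388214 to 1289833 in the IgG T0 libraries and 88136, 92022 and 248522 in the IgG T3 libraries of animals 1, 3 and 4. The lowest level that can be read, set at 3 counts, was therefore 1.05 to 2.46 CPM in the HA libraries but 12.1 to 34.0 CPM in the IgG T3 libraries. The 10 glial markers, Sox10 and S100b among them, summed to 3750 to 4661 CPM in HA T0 and 196 to 266 CPM in IgG T0, and all 10 were higher in HA. Among the IgG libraries, those of animals 1 and 3 at T3 stood apart in these markers, at 1112 and 913 CPM against 196 to 266 CPM in the other 4. Of the 4 markers of interstitial cells of Cajal, the pacemaker cells of the gut muscle, 3 were also higher in HA T0. None of the tested markers among 12 neuronal, 8 smooth muscle, 8 fibroblast, 9 macrophage, 8 endothelial, 6 mesothelial and 6 epithelial genes was higher in HA at T0, nor was any of the 4 neutrophil and monocyte markers in the files.

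The 58 genes together took 4070 to 4574 CPM in HA T0, 3856 to 4525 CPM in HA T3, 1481 to 1963 CPM in IgG T0 and 1682 to 2662 CPM in IgG T3. Of them, 35 passed the test in at least 1 of 5 comparisons and 23 in none, of which 9 were not tested in any. The share of all genes passing in at least 1 comparison was not counted, so this tally is no result about the members. For each single comparison the share of all genes is given below. In the IgG T3 libraries 25 of the 58 were at or under 3 counts in every library, and 9 of these were at 0 in all 3. The corresponding numbers were 1 and 0 in HA T0, 3 and 0 in IgG T0, and 9 and 2 in HA T3. The heat map of all 58 genes by library shows this difference in depth as dark cells in the IgG T3 columns.

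**Figure D1:**
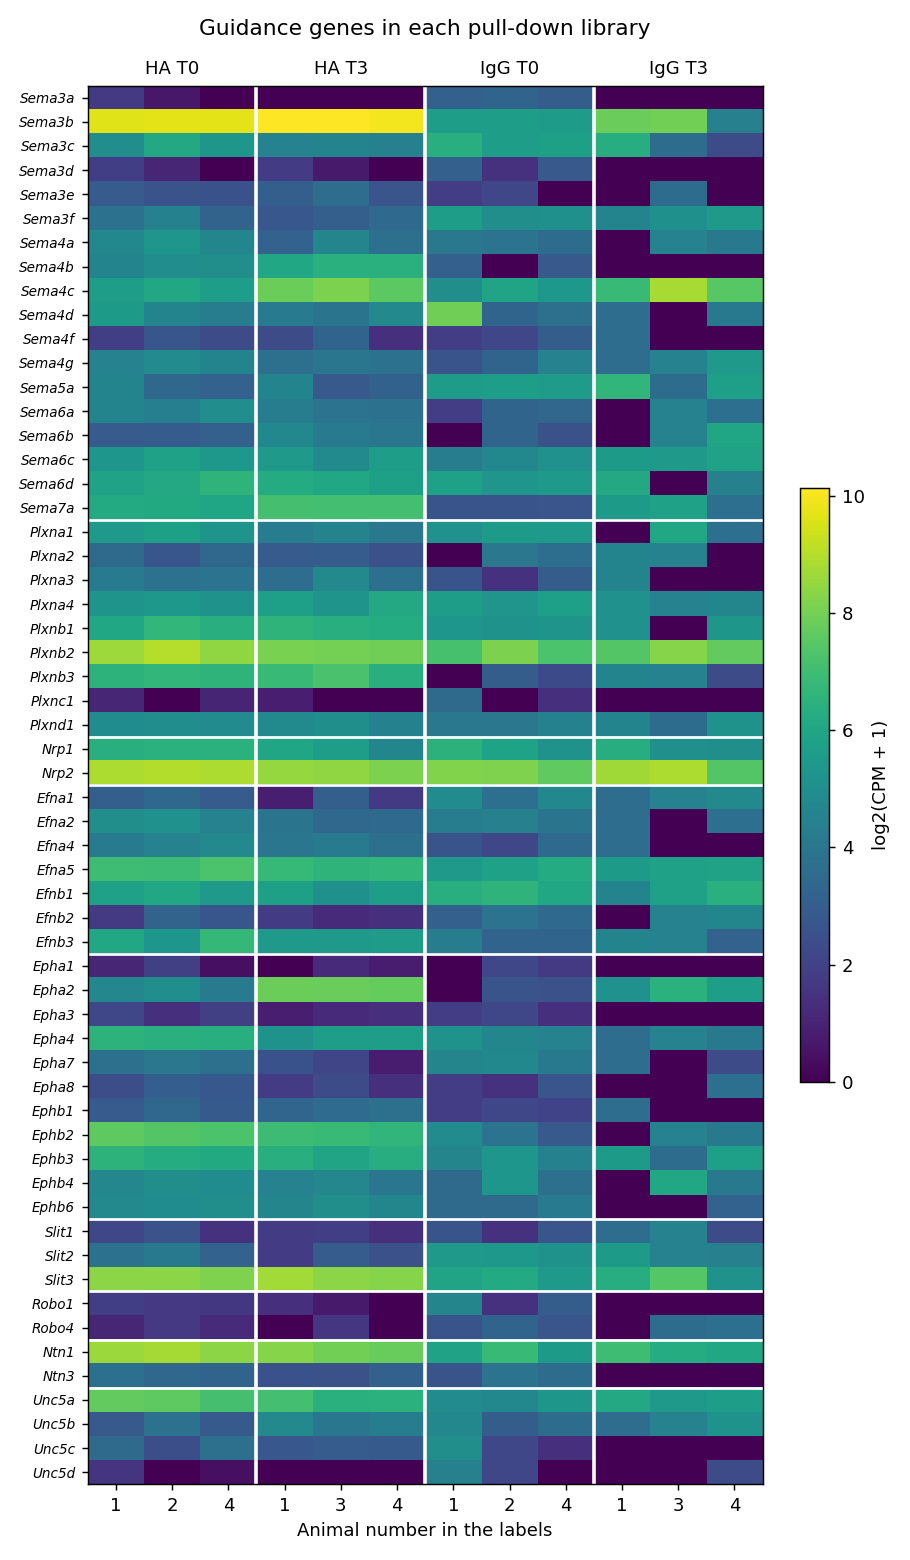
Level of each of the 58 guidance genes (rows, grouped by family) in each of the 12 libraries (columns, by group and animal), as log2(CPM + 1) on a colour scale from dark (0) to bright. Sema3b, Plxnb3, Sema7a and Ephb2 are brighter in all 6 HA libraries than in the 6 IgG libraries, and Epha2 and Sema4c are brighter at T3 than at T0 with either antibody.

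The comparison of HA with IgG in naive tissue asks which guidance genes were enriched in the ribosomes of the recombined cells. Sema3b, Plxnb3, Ephb2 and Sema7a were 12.5-fold to 23.7-fold higher in HA than in IgG, and Slit3, Unc5a and Ntn1 were 5.26-fold to 5.46-fold higher. Slit2, Sema5a, Sema3f, Efna1 and Sema3a were lower in HA. Of the 58 genes, 46 passed the filter on low counts, and 26 of these (56.5%) passed edgeR's quasi-likelihood test at a Benjamini-Hochberg adjusted p under 0.05, 21 higher and 5 lower in HA. Over all 9823 genes tested, 30.3% passed, 16.0% higher and 14.4% lower. The CPM of the HA and IgG libraries did not overlap for 32 of the 46 genes, against 44.8% of all genes tested. The median log2 fold change was 0.71 over the 46 genes and -0.015 over all genes tested. A gene could pass the filter through the group where it was high, so these counts describe the genes that passed and not all 58. In bulk pull-downs, fewer cells of a type and less RNA per cell cannot be told apart.

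Semaphorins (18 genes, 15 tested) were called in both directions, 5 higher and 3 lower. Sema3b, a secreted class 3 semaphorin (chr9:107597674-107609229 in mm10), was at 797, 836 and 839 CPM in the HA libraries of animals 1, 2 and 4 and at 48.9, 49.7 and 48.1 CPM in their IgG libraries. Its libraries within each group lay close together, and HA was 16.5-fold higher (log2 fold change 4.05 ± 0.21 SE, edgeR adjusted p = 3.2e-08). Sema7a, which is anchored in the membrane by a lipid and binds integrins as well as Plxnc1 (chr9:57940112-57962865), was at 71.8, 70.4 and 61.7 CPM in HA and at 5.15, 5.14 and 5.43 CPM in IgG. This was a 12.5-fold difference (log2 fold change 3.64 ± 0.34 SE, edgeR adjusted p = 3.09e-06), although the IgG values rested on 2, 3 and 7 counts. Its receptor Plxnc1 had at most 4 counts in any library and was not tested. The transmembrane semaphorins Sema4b (28.2 ± 4.85 CPM in HA and 4.64 ± 4.09 in IgG, mean ± SD, n = 3 each), Sema6a (24.4 ± 5.68 and 6.82 ± 3.69 CPM) and Sema4a (29.3 ± 8.03 and 13.3 ± 2.32 CPM) were higher in HA, with log2 fold changes of 2.52, 1.64 and 1.16. The call for Sema4a ended without the HA library of animal 2 (edgeR adjusted p = 0.119), without the IgG library of animal 4 (0.113) and with DESeq2 (adjusted p = 0.0551).

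The semaphorins lower in HA T0 were Sema5a, Sema3f and Sema3a. Sema5a, a transmembrane ligand of Plxnb3 (chr15:32244810-32696341), was at 23.0, 9.50 and 8.01 CPM in HA and at 46.4, 49.7 and 47.3 CPM in IgG. It was 3.52-fold lower (log2 fold change -1.82 ± 0.39 SE, edgeR adjusted p = 0.00324), opposite in direction to its receptor. Sema3f, a secreted ligand of Nrp2, was at 13.1, 20.7 and 8.36 CPM in HA and at 48.9, 30.9 and 32.6 CPM in IgG. All 3 HA libraries lay below all IgG libraries, a 2.68-fold difference (edgeR adjusted p = 0.0111, and 0.0515 without the HA library of animal 4). Sema3a, a secreted ligand of Nrp1, had 6, 1 and 0 counts in HA and 3, 5 and 9 counts in IgG, or at most 2.30 CPM against 6.98 to 8.57 CPM. Its 7.47-fold difference (edgeR adjusted p = 0.0141) rested on these few counts and was not called without the IgG library of animal 2 (0.0528) or animal 4 (0.07).

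Of 8 plexins tested, 4 were higher in HA T0 and none was lower. Plxnb3 (chrX:73757090-73772514) was at 91.8, 105 and 94.4 CPM in HA and at 0, 6.86 and 3.88 CPM in IgG, which held 0, 4 and 5 counts. The groups were far apart, and the fold change of 23.7 (log2 4.56 ± 0.41 SE, edgeR adjusted p = 2.08e-06) was the largest of the 46 genes. Plxnb1, a receptor of Sema4d, was at 84.0 ± 19.1 CPM in HA and 37.0 ± 1.42 CPM in IgG (log2 fold change 1.15, edgeR adjusted p = 0.0037). Plxnb2 was at 418 ± 82.0 and 192 ± 75.5 CPM (log2 fold change 1.10, edgeR adjusted p = 0.00546), so all members of the B class were called higher. Plxna3 was at 14.4 ± 2.15 and 4.61 ± 2.67 CPM, and its call (edgeR adjusted p = 0.0339) ended without the HA library of animal 1 (0.11), 2 (0.059) or 4 (0.059), without the IgG library of animal 2 (0.111), with DESeq2 (0.0832) and with all 12 libraries in one fit (0.051). Of the co-receptors, Nrp2 was higher in HA (483 ± 13.5 against 262 ± 53.3 CPM, log2 fold change 0.87, edgeR adjusted p = 0.0049), and Nrp1 was not called (86.8 ± 2.38 against 61.1 ± 27.7 CPM, edgeR adjusted p = 0.164). Without the IgG library of animal 1, Nrp1 was called higher (0.0135).

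All 7 ephrins were tested at T0, with 3 higher and 1 lower in HA, and of 7 Eph receptors tested 5 were higher. Ephb2, a receptor of the B class ephrins (chr4:136647539-136835988), was at 197, 169.9 and 153 CPM in HA and at 28.3, 13.7 and 6.20 CPM in IgG (12.8-fold, log2 fold change 3.68 ± 0.39 SE, edgeR adjusted p = 2.53e-05). The groups did not overlap, although the IgG libraries differed among themselves more than the HA libraries did in proportion. Ephb3, a receptor of the same class, was at 92.9, 77.1 and 69.7 CPM in HA and at 23.2, 39.4 and 20.9 CPM in IgG (2.89-fold, edgeR adjusted p = 0.00142). Epha4, which binds ephrins of both classes (chr1:77367185-77515088), was at 92.1, 86.6 and 83.6 CPM in HA and at 36.1, 24.0 and 21.7 CPM in IgG (3.31-fold, edgeR adjusted p = 0.000314). Epha2, an A class receptor (chr4:141301240-141329384), had 64, 55 and 51 counts in HA (24.6, 30.7 and 17.8 CPM) and 0, 3 and 6 in IgG (0, 5.14 and 4.65 CPM). Its HA libraries all lay above its IgG libraries (6.05-fold, edgeR adjusted p = 0.00214).

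Ephb6, whose kinase domain is inactive, was at 28.9 ± 2.26 CPM in HA and 12.5 ± 3.90 CPM in IgG (edgeR adjusted p = 0.0245). That call ended without the HA library of animal 1 (0.0603), 2 (0.0693) or 4 (0.077), without the IgG library of animal 2 (0.0745) and with DESeq2 (0.0645). Among the ligands, the transmembrane Efnb3 was at 64.1, 38.6 and 106 CPM in HA and at 18.0, 8.57 and 8.53 CPM in IgG (6.40-fold, log2 fold change 2.68 ± 0.44 SE, edgeR adjusted p = 0.000557). The HA libraries spread widely but each was above every IgG library. The lipid-anchored Efna5 was at 127, 123 and 153 CPM in HA and at 43.8, 54.9 and 73.7 CPM in IgG (2.21-fold, edgeR adjusted p = 0.00187). Efna4, also lipid-anchored, was at 22.0 ± 4.41 and 6.22 ± 3.45 CPM (log2 fold change 1.59, edgeR adjusted p = 0.0126). Efna1, a ligand of Epha2, went the other way, at 7.29, 9.50 and 6.62 CPM in HA and 28.3, 12.0 and 25.6 CPM in IgG. It was 2.89-fold lower in HA (edgeR adjusted p = 0.012), but not called without the HA (0.0529) or the IgG (0.0841) library of animal 4.

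The Slits were called in opposite directions. Slit3 (chr11:35121224-35708507) was at 331, 330.2 and 287 CPM in HA and at 59.2, 72.0 and 43.4 CPM in IgG, which was 5.46-fold higher in HA (log2 fold change 2.45 ± 0.23 SE, edgeR adjusted p = 3.63e-06). Slit2 (chr5:47983138-48307733) was at 12.7, 16.2 and 8.01 CPM in HA and at 43.8, 41.1 and 34.9 CPM in IgG, which was 3.29-fold lower (log2 fold change -1.72 ± 0.34 SE, edgeR adjusted p = 0.00172). Neither pair of groups overlapped. Both encode secreted ligands of Robo receptors, and the Robo receptors in the files, Robo1 and Robo4, had at most 9 counts in any library and were not tested in this comparison. Ntn1, a secreted netrin (chr11:68209364-68400823), was at 386, 431 and 326 CPM in HA and at 56.7, 117 and 45.0 CPM in IgG (5.26-fold, log2 fold change 2.39 ± 0.31 SE, edgeR adjusted p = 0.000141). Its receptor Unc5a (chr13:54949411-55006018) was at 204, 194 and 141 CPM in HA and at 28.3, 25.7 and 40.3 CPM in IgG (5.41-fold, log2 fold change 2.44 ± 0.26 SE, edgeR adjusted p = 1.37e-05). For both, every HA library lay above every IgG library. The 3′ window of Unc5a overlaps the gene Hk3 on the opposite strand, and whether counting used the strand is not stated, so reads of these genes may not be separable.

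The guidance genes higher in HA T0 had the same direction as the glial markers (10 of 10 higher) and the markers of interstitial cells of Cajal. The latter summed to 2741 to 3485 CPM in HA and 254 to 356 CPM in IgG. The guidance genes lower in HA had the same direction as the markers of smooth muscle (8 of 8 lower, 15562 to 23834 CPM in HA and 46091 to 64163 in IgG), fibroblasts (7 of 7 tested lower, 1057 to 1392 and 2912 to 3140 CPM), mesothelium (6 of 6 lower, 186 to 248 and 567 to 1114 CPM) and neurons (7 of 11 tested lower, 1173 to 1370 and 1596 to 3555 CPM). A smaller share was called lower for macrophages (3 of 9, 430 to 754 and 719 to 1069.6 CPM) and epithelium (2 of 6, 41.1 to 217 and 306 to 591 CPM). Fewer markers were tested for endothelium (2 of 3 tested lower, of 8 in the files, 31.9 to 51.4 and 72.1 to 122 CPM). The same held for neutrophils and monocytes (2 of 2 tested lower, of 4 in the files, 6.27 to 16.2 and 26.4 to 39.4 CPM, with S100a8 and S100a9 at 0 in every IgG T0 library). Genes sorted by direction share it with such markers by definition, so this does not show that genes and markers vary together. The part of each cell type in these differences was not tested. Of the 26 calls at T0, 20 were kept in all 13 alternatives, and the other 6 are those of Sema4a, Sema3f, Sema3a, Plxna3, Ephb6 and Efna1 given above.

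At 3 h after manipulation the same comparison drew on shallower IgG libraries. Ephb2 and Sema3b were again higher in HA, by 8.33-fold and 8.10-fold, as was Plxnb3, whose IgG T3 libraries held at most 2 counts each. The difference was 4.32-fold to 4.94-fold for Sema7a, Slit3 and Epha2, and Slit2, Sema3f and Sema5a were again lower. Of 35 genes tested, 17 (48.6%) were called, 14 higher and 3 lower, against 21.9% of all 7200 genes tested (11.8% higher and 10.2% lower). The CPM of the groups did not overlap for 18 of the 35, against 35.8% of all genes tested, and the median log2 fold change was 0.78 against 0.021. Of the 17 calls, 8 were kept in all 13 alternatives: Sema3b, Sema4b, Sema7a, Plxnb3, Epha2, Ephb2, Slit3 and Ntn1. Without the HA library of animal 1, 3 or 4 the number of calls was 10, 8 and 8, of 22, 22 and 21 genes that still passed the filter on low counts. Slit2, Sema3f and Ephb6 were no longer tested in any of these 3 fits, nor was Epha4 in the last 2, so the fall includes genes without a test. Without the IgG library of animal 4 there were 10 calls among 44 genes tested. With the animal as a block it was 15.

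Plxnb3 was at 115, 148 and 81.0 CPM in the HA T3 libraries of animals 1, 3 and 4 and at 22.7, 21.7 and 4.02 CPM in IgG T3, where these values stand for 2, 2 and 1 counts (log2 fold change 3.32 ± 0.57 SE, edgeR adjusted p = 0.000416). Each IgG value was under the floor of 3 counts, so the size of this fold change is uncertain. Sema3b was at 1124, 1097 and 1001 CPM in HA and at 227, 249.9 and 20.1 CPM in IgG (log2 fold change 3.02 ± 0.56 SE, edgeR adjusted p = 0.00265). Sema7a was at 142, 136 and 135 CPM in HA and at 45.4, 54.3 and 12.1 CPM in IgG (log2 fold change 2.31 ± 0.43 SE, edgeR adjusted p = 0.000888). For all 3 genes the groups did not overlap, and the IgG libraries of animals 1 and 3 held more than that of animal 4. The glial markers summed to 1112, 913 and 245 CPM in the same IgG libraries of animals 1, 3 and 4, against 196 to 266 CPM in IgG T0, and the markers of interstitial cells of Cajal to 772, 706 and 189 CPM. Whether glial RNA in these control libraries had a part in these fold changes was not tested.

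Ephb2 was at 121, 113 and 99.7 CPM in HA T3 and at 0, 21.7 and 16.1 CPM in IgG T3 (8.33-fold, edgeR adjusted p = 0.000296). Epha2 was at 231, 227 and 211 CPM in HA and at 34.0, 86.9 and 48.3 CPM in IgG (4.32-fold, log2 fold change 2.11 ± 0.34 SE, edgeR adjusted p = 0.00025). Both receptors were clearly separated between the antibodies, and Epha2 was well above its T0 level with either. Slit3 was at 419.9, 330.3 and 315 CPM in HA and at 79.4, 174 and 36.2 CPM in IgG (4.55-fold, edgeR adjusted p = 0.000549). Ntn1 was at 309, 253 and 217 CPM in HA and at 125, 76.1 and 64.4 CPM in IgG (3.33-fold, edgeR adjusted p = 0.000859). Sema4b was at 63.8, 86.3 and 85.6 CPM in HA, or 78, 129 and 110 counts, and had no count in any IgG T3 library, so only a bound of at least 3.00-fold higher in HA can be given (edgeR adjusted p = 0.000144).

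The remaining genes called higher at T3 each lost the call in at least 1 alternative. Plxnb1 was at 94.9, 82.3 and 76.3 CPM in HA and at 34.0, 0 and 40.2 CPM in IgG (log2 fold change 1.58, edgeR adjusted p = 0.0221), and was not called without the HA library of animal 1 (0.0743), 3 (0.0604) or 4 (0.0598). Efnb3 was at 44.2, 44.1 and 46.7 CPM in HA and at 22.7, 21.7 and 8.05 CPM in IgG, each of these from 2 counts and so of uncertain size (log2 fold change 1.72, edgeR adjusted p = 0.031). Its call ended without the HA library of animal 1 (0.0674), 3 (0.0644) or 4 (0.0939), without the IgG library of animal 4 (0.237) and with DESeq2 (0.0535). Ephb6 was at 23.7, 30.8 and 24.1 CPM in HA and had 0, 0 and 2 counts in IgG. Its pooled ratio was 5.68 (95% exact counting interval 1.53 to 47.5, edgeR adjusted p = 0.0319), and the call ended without the IgG library of animal 1 (0.064) or 3 (0.0542) and with DESeq2 (0.0732).

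Efna5 was at 109, 95.6 and 105 CPM in HA T3 and at 45.4, 54.3 and 56.3 CPM in IgG T3 (log2 fold change 1.03, edgeR adjusted p = 0.0388). Although the groups did not overlap, its call ended with the animal as a block (0.0565), with total counts as scaling (0.065), with DESeq2 (0.0519), without the HA library of animal 1 (0.0922), 3 (0.0656) or 4 (0.11) and without the IgG library of animal 1 (0.054) or 4 (0.0767). Epha4 was at 45.8 ± 8.49 CPM in HA and 16.4 ± 5.20 CPM in IgG (log2 fold change 1.56, edgeR adjusted p = 0.0425), and was not called with total counts as scaling (0.0596), with DESeq2 (0.0743) or without the IgG library of animal 1 (0.0692) or 4 (0.15). Unc5a was at 104 ± 27.9 and 53.3 ± 13.0 CPM (log2 fold change 1.07, edgeR adjusted p = 0.0499), at the edge of the threshold. With the animal as a block its edgeR adjusted p was 0.0644, with RLE factors computed in edgeR 0.0563 and with total counts as scaling 0.0784. With DESeq2 the adjusted p was 0.0808. Without the HA library of animal 1, 3 or 4 the edgeR adjusted p was 0.176, 0.0651 and 0.0893, and without the IgG library of animal 3 or 4 it was 0.055 and 0.139.

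Of the genes called lower at T3, Slit2 was at 2.46, 6.69 and 4.67 CPM in HA and at 45.4, 21.7 and 20.1 CPM in IgG (5.12-fold lower, log2 fold change -2.36 ± 0.63 SE, edgeR adjusted p = 0.0115). The IgG values came from 4, 2 and 5 counts, and the call ended without the IgG library of animal 1 (0.0944) or 4 (0.0704). Sema3f was at 5.73, 7.36 and 10.1 CPM in HA and at 22.7, 32.6 and 44.3 CPM in IgG (4.40-fold lower, edgeR adjusted p = 0.00754), but without the control library of animal 4 this p was 0.258. Sema5a was at 12.2 ± 9.29 CPM in HA and 55.1 ± 45.7 CPM in IgG, and these groups overlapped (log2 fold change -2.08 ± 0.63 SE, edgeR adjusted p = 0.0246). It was not called with all 12 libraries in one fit (0.0552), without the HA library of animal 3 (0.0798) or 4 (0.105), or without the IgG library of animal 1 (0.136) or 4 (0.18).

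**Figure D2:**
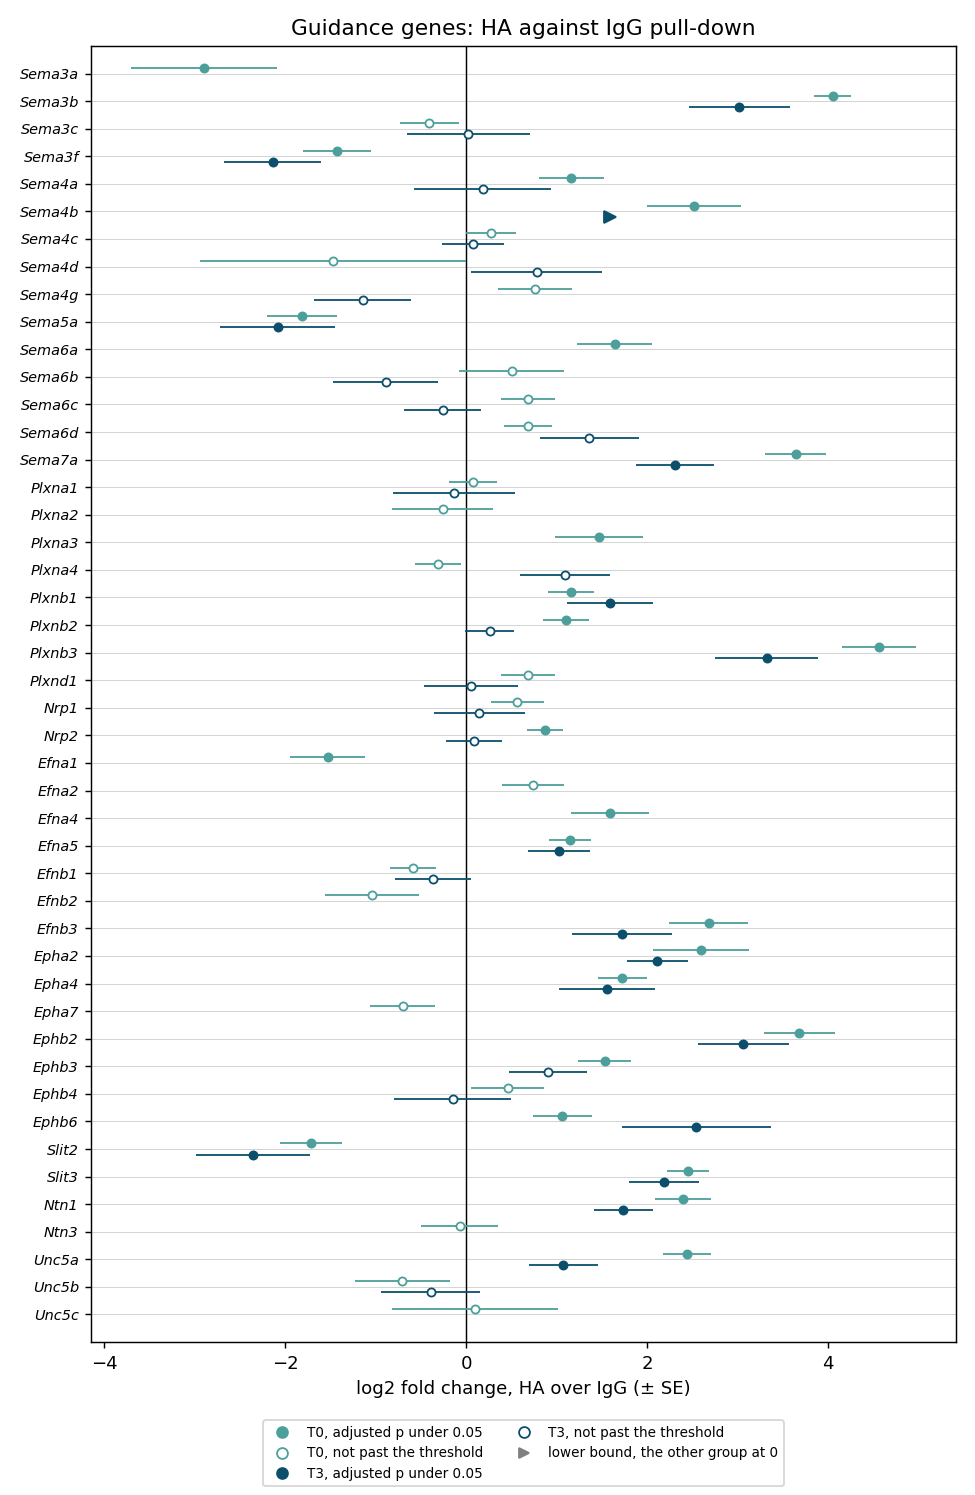
Log2 fold change of HA over IgG (± SE, n = 3 libraries a group) of each tested guidance gene at T0 (light) and T3 (dark), filled where the edgeR adjusted p was under 0.05; the triangle marks the lower bound for Sema4b at T3. Sema3b, Sema7a, Plxnb3 and Ephb2 lie far to the right at both times, and Slit2, Sema3f and Sema5a to the left.

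The comparison of T3 with T0 in the HA libraries asks how the ribosome-bound RNA of the recombined cells differed 3 h after manipulation. Epha2 was 11.1-fold higher, Sema4c 5.13-fold and Sema4b 3.37-fold, and Epha7 was 3.58-fold lower. Of 46 genes tested, 14 (30.4%) were called, 8 higher and 6 lower, which is near the 33.8% of all 9441 genes tested (18.7% higher and 15.1% lower). The CPM of the groups did not overlap for 25 of the 46 genes, against 50.8% of all genes tested, and the median log2 fold change was -0.233 against -0.016. Because this share is close to that of all genes, only single members are described. With total counts in place of the TMM factors, the median of all genes tested moved to -0.286 and the split of the calls from 8 higher and 6 lower to 6 higher and 14 lower. Since CPM are per total count, CPM ratios below lie lower than the fitted fold changes by about this shift.

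Epha2 was at 24.6, 30.7 and 17.8 CPM in HA T0 and at 231, 227 and 211 CPM in HA T3 (64, 55 and 51 counts against 282, 339 and 271). The T3 libraries lay close together and far above every T0 library (log2 fold change 3.47 ± 0.22 SE, edgeR adjusted p = 1.69e-10). Sema4c, a transmembrane semaphorin that binds Plxnb2 (chr1:36548639-36558349), was at 49.9, 67.0 and 48.4 CPM at T0 and at 228, 284 and 190.0 CPM at T3 (log2 fold change 2.36 ± 0.21 SE, edgeR adjusted p = 2.36e-08). Sema4b, of the same class (chr7:80186841-80226527), was at 22.7, 30.7 and 31.4 CPM at T0 and at 63.8, 86.3 and 85.6 CPM at T3 (log2 fold change 1.75 ± 0.22 SE, edgeR adjusted p = 3.15e-06). For none of these genes did the times overlap. Sema7a went from 71.8, 70.4 and 61.7 CPM at T0 to 142, 136 and 135 CPM at T3 (2.44-fold, log2 fold change 1.29 ± 0.18 SE, edgeR adjusted p = 1.33e-05).

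Sema6b, a transmembrane ligand of A class plexins, was at 6.53, 6.71 and 7.66 CPM in HA T0 and at 25.4, 17.4 and 14.8 CPM in HA T3 (3.26-fold, log2 fold change 1.71 ± 0.33 SE, edgeR adjusted p = 0.000492). Unc5b, a netrin receptor, was at 6.14, 12.9 and 6.27 CPM at T0 and at 26.2, 14.7 and 18.7 CPM at T3 (2.90-fold, log2 fold change 1.54 ± 0.36 SE, edgeR adjusted p = 0.00257). Both rested on 12 to 32 counts a library, and neither overlapped between the times. Neither gene was called between the antibodies. The log2 fold change of HA over IgG for Sema6b was 0.50 in naive tissue and -0.89 after manipulation. For Unc5b it was -0.70 and -0.39. The IgG mean of Sema6b went from 4.41 ± 4.29 to 27.4 ± 30.6 CPM with time. That of Unc5b went from 14.5 ± 9.96 to 23.1 ± 12.5 CPM. These IgG libraries overlapped and had no test with time. A part of untagged RNA in both HA differences was not tested. Sema3b was at 824 ± 23.2 CPM at T0 and 1074 ± 64.5 CPM at T3 (log2 fold change 0.65 ± 0.16 SE, edgeR adjusted p = 0.004), but it was not called with total counts as scaling (0.0575) or with all 12 libraries in one fit (0.225). Plxna4, an A class plexin, was at 38.0 ± 3.44 and 52.5 ± 16.3 CPM with overlapping libraries (log2 fold change 0.73, edgeR adjusted p = 0.0234). Its call ended with total counts as scaling (0.128), without the T0 library of animal 1 (0.0589) or 4 (0.0772) and without the T3 library of animal 4 (0.204).

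The genes lower at T3 included 2 Eph receptors and 1 ephrin. Epha7, an A class receptor (chr4:28813131-28967499), was at 12.3, 15.1 and 12.2 CPM in HA T0 and at 4.91, 3.34 and 0.779 CPM in HA T3, or 32, 27 and 35 counts against 6, 5 and 1 (log2 fold change -1.84 ± 0.46 SE, edgeR adjusted p = 0.00435). Efna2, a lipid-anchored ephrin, was at 31.1, 34.1 and 21.2 CPM at T0 and at 13.9, 9.36 and 10.1 CPM at T3 (2.16-fold lower, log2 fold change -1.11 ± 0.31 SE, edgeR adjusted p = 0.00915). Every T3 library of both genes lay below every T0 library. Plxna1 was at 44.6 ± 8.26 and 18.5 ± 3.28 CPM (log2 fold change -0.99 ± 0.26 SE, edgeR adjusted p = 0.00615), and these 3 calls were kept in all 12 alternatives. The 3′ window of Plxna1 overlaps the gene Gm26811 on the opposite strand, so the reads of these genes may not be separable. Plxna1, Epha7 and Efna2 were not called between the antibodies at T0, with log2 fold changes of HA over IgG of 0.08, -0.70 and 0.74. In IgG, Plxna1 was at 40.7 ± 6.29 CPM at T0 and 25.8 ± 34.7 CPM at T3. Its log2 fold change there was -0.91 ± 0.67 SE and was not called. Epha7 and Efna2 were not tested in IgG, and their values there are given below. Whether RNA that came down without the tag had a part in these HA differences was not tested. Epha4 was at 87.5 ± 4.33 and 45.8 ± 8.49 CPM (log2 fold change -0.66, edgeR adjusted p = 0.0174), and was not called with all 12 libraries in one fit (0.0627), without the T0 library of animal 1 (0.0543) or without the T3 library of animal 1 (0.108).

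Sema3c, a secreted semaphorin, was at 46.6 ± 19.8 CPM in HA T0 and 21.4 ± 1.25 CPM in HA T3 (log2 fold change -0.83, edgeR adjusted p = 0.031). The call ended without the T0 library of animal 2 (0.221), which at 68.7 CPM was the highest, without the T3 library of animal 1 (0.0859), 3 (0.0599) or 4 (0.114), and with all 12 libraries in one fit (0.133). Nrp1 was at 86.8 ± 2.38 and 45.4 ± 19.2 CPM (log2 fold change -0.67, edgeR adjusted p = 0.0434). The T3 libraries spread from 24.1 to 61.4 CPM, and its call ended without the T3 library of animal 3 (0.0551) or 4 (0.261), without the T0 library of animal 1 (0.0812), 2 (0.0849) or 4 (0.0523), with DESeq2 (0.0575) and with all 12 libraries in one fit (0.133).

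Some members close to the threshold crossed it in an alternative. With total counts as scaling, Plxnb2 (-0.70), Unc5a (-0.80), Ephb2 (-0.64), Nrp2 (-0.55), Ntn1 (-0.56), Slit2 (-1.35), Sema4a (-0.95) and Sema4g (-0.84) were also called lower, values on the log2 scale. All 8 had a negative fold change in the TMM fit too, from -0.28 (Nrp2) to -1.09 (Slit2), with edgeR adjusted p of 0.0562 (Unc5a) to 0.231 (Ntn1). In CPM, Ntn1 was at 381 ± 52.6 in HA T0 and 260.0 ± 46.4 in HA T3, Nrp2 at 483 ± 13.5 and 331 ± 45.2, and Plxnb2 at 418 ± 82.0 and 257 ± 13.4. Without the T3 library of animal 4, Plxnb3 was called higher (edgeR adjusted p = 0.0244, and 0.0597 with all 6 libraries). Single left-out libraries also made Efna1 (0.0371 without the T3 library of animal 3) and Efnb3 (0.0473 without the T0 library of animal 2) pass as lower.

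The differences between HA T3 and HA T0 stood beside differences in cell type markers. Markers of interstitial cells of Cajal summed to 1216 to 1588 CPM in HA T3 (3 of 4 lower), fibroblast markers to 312 to 546 CPM (5 of 7 tested lower) and mesothelial markers to 27.2 to 34.8 CPM (5 of 5 tested lower). Neuronal markers summed to 1297 to 2250 CPM (5 of 11 tested higher), macrophage markers to 200 to 343 CPM against 430 to 754 CPM at T0 (3 of 6 tested lower), and smooth muscle markers to 12782 to 15161 CPM (3 of 8 lower). The glial markers summed to 4543 to 5226 CPM at T3 against 3750 to 4661 CPM at T0, with 2 higher and 1 lower of 10. Markers of neutrophils and monocytes summed to 22.1 to 116 CPM at T3 against 6.27 to 16.2 CPM at T0 (1 of 1 tested higher), of endothelium to 42.6 to 46.8 against 31.9 to 51.4 CPM (1 of 3 tested higher), and of epithelium to 24.6 to 49.5 against 41.1 to 217 CPM (0 of 4 tested called by edgeR). The part of each cell type in the guidance genes' differences was not tested.

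**Figure D3:**
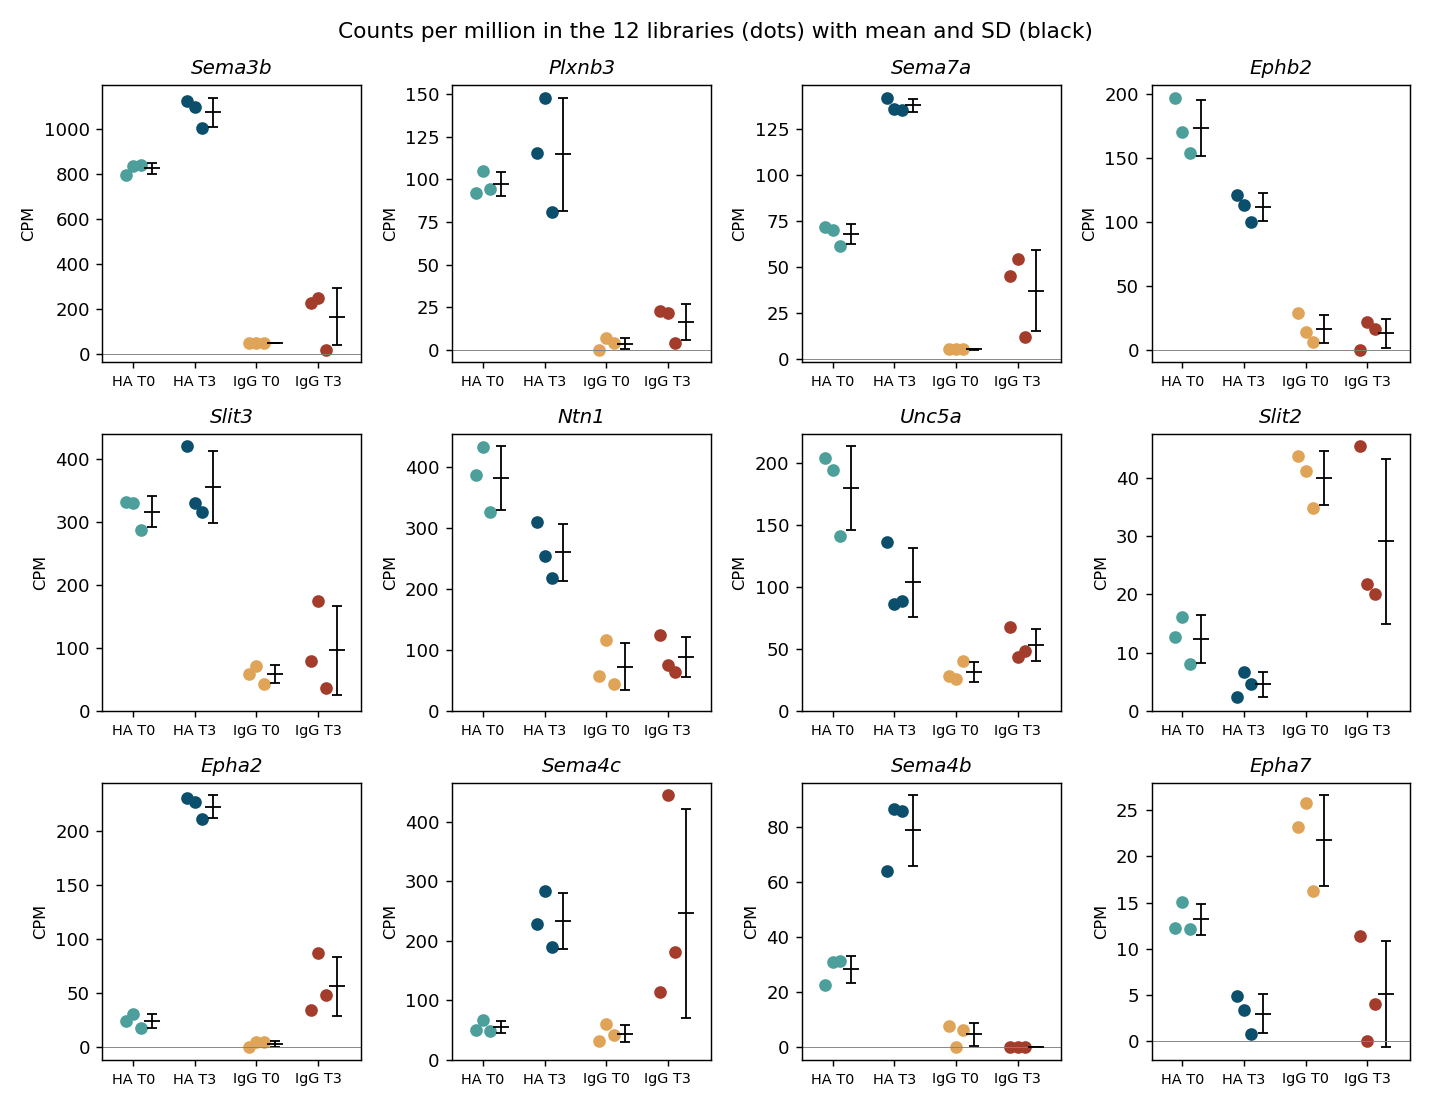
CPM of 12 guidance genes in each of the 12 libraries (dots), with the mean and SD of each group of 3 libraries in black; each panel has its own linear axis. Sema3b, Plxnb3, Sema7a, Ephb2, Slit3, Ntn1 and Unc5a are high in HA, and Slit2 is high in IgG. Epha2 and Sema4c are higher at T3 with both antibodies, and Sema4b is higher at T3 in HA. Epha7 is lower at T3 in HA and in IgG, where its T3 libraries held at most 1 count each.

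Promoter sequence is shown for genes that were higher in HA at T3, the calls that the comparison with time turns on. RefSeq start sites (GRCm38.p6) matched 49 of the 58 genes with 62 windows. The 250 bases before each start were searched on both strands for TGANTCA (letters that include the AP-1 element), TGACGTCA (the cyclic AMP element), a short form of the NF-kappaB element and ACAAAG (a core of Sox binding sites). TGANTCA and TGACGTCA share letters, and neither contains the other. TGANTCA was in 1 of the 250-base windows of Sema4c and 1 of Sema6b, TGACGTCA was in that of Epha2, and neither of the other motifs was found in the 9 windows of the 6 matched genes that were higher. Of all 32851 promoter windows, 6.75% held TGANTCA, 1.55% TGACGTCA, 1.21% the NF-kappaB form and 16.5% ACAAAG. Among the 12678 windows of genes in the files these shares were 4.75%, 2.53%, 1.18% and 12.4%, and of the 62 windows of guidance genes 3, 1, 0 and 7 did. The first line below is the Epha2 promoter (chr4:141300971-141301220, plus strand) with TGACGTCA in capitals, which begins 33 bases before the start. The second is the upstream one of the Sema4c promoters (chr1:36558382-36558631, minus strand) with the TGANTCA match in capitals, 22 bases before the start. The third, shown as a member that was higher at T3 without a match, is Sema7a (chr9:57939862-57940111, plus strand).
Epha2: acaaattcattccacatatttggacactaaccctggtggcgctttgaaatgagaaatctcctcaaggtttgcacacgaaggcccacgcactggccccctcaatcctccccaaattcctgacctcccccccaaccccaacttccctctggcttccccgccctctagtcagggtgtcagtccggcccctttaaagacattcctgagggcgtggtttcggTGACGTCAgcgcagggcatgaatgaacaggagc
Sema4c: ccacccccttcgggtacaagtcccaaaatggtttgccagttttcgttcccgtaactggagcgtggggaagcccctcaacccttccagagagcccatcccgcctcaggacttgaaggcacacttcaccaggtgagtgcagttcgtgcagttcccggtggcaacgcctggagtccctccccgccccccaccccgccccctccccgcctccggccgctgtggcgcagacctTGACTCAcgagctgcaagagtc
Sema7a: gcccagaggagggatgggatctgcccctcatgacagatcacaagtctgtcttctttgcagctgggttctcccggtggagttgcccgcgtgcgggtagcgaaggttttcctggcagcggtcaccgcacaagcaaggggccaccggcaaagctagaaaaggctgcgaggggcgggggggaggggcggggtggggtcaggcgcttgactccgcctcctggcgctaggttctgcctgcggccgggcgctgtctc

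In these promoters a match is only an occurrence of the letters. Among the genes called higher in HA T0 (22 windows of 17 matched genes), ACAAAG was in Efna4 and Plxnb3 and TGACGTCA in Epha2. Among the genes lower in HA at T0 (5 windows of 4 genes), ACAAAG was in Sema3a, and among those lower at T3 in HA (6 windows of 5 genes) it was in Efna2. These shares rest on few windows and were not compared with those of other genes.

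The comparison of T3 with T0 in the IgG libraries gives the difference in the RNA that came down without the tag. Of 21 genes tested, 2 (9.52%) were called, both higher, against 5.46% of all 5219 genes tested (4.43% higher and 1.03% lower). Epha2 was at 0, 5.14 and 4.65 CPM in the IgG T0 libraries of animals 1, 2 and 4 and at 34.0, 86.9 and 48.3 CPM in IgG T3 (0, 3 and 6 counts against 3, 8 and 12). The groups did not overlap (13.1-fold, log2 fold change 3.71 ± 0.65 SE, edgeR adjusted p = 0.00297), but the call ended without the T3 library of animal 3 (0.0606) or 4 (0.0556). Sema4c was at 30.9, 60.0 and 41.9 CPM at T0 and at 113, 446 and 181 CPM at T3 (5.30-fold, log2 fold change 2.41 ± 0.45 SE, edgeR adjusted p = 0.00469). It was called in all 12 alternatives. Between the antibodies Sema4c was not called at T0 (55.1 ± 10.4 CPM in HA and 44.3 ± 14.7 in IgG) or at T3 (234 ± 47.0 and 247 ± 175 CPM). These IgG fold changes stood at 3.71 and 2.41 on the log2 scale beside 3.47 and 2.36 for the same genes in HA. Mesothelial markers summed to 136 to 205 CPM in IgG T3 against 567 to 1114 CPM in IgG T0 (4 of 5 tested lower), fibroblast markers to 1135 to 1880.0 against 2912 to 3140 CPM (2 of 7 tested lower) and epithelial markers to 136 to 309.8 against 306 to 591 CPM (1 of 3 tested lower). Glial markers summed to 1112, 913 and 245 CPM in IgG T3 (animals 1, 3 and 4) and 196 to 266 CPM in IgG T0. Of them, 1 of 4 tested was higher. Markers of interstitial cells of Cajal summed to 772, 706 and 189 CPM in the same IgG T3 libraries and 254 to 356 CPM in IgG T0 (0 of 2 tested higher). The part of these cell types in the IgG differences was not tested.

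Among the genes not called in IgG, Sema3b was at 48.9 ± 0.821 CPM at T0 and at 227, 249.9 and 20.1 CPM at T3 (log2 fold change 1.54, edgeR adjusted p = 0.198). It was called without the T3 library of animal 4 (0.00656) and without the filter on low counts (0.036). The library of animal 4 held glial markers at 245 CPM, against 1112 and 913 CPM in the T3 libraries of animals 1 and 3. Sema3c was called lower without the T3 library of animal 1 (edgeR adjusted p = 0.0247, log2 fold change -3.28), since that library held 79.4 CPM and the others 10.9 and 4.02. The CPM of the groups did not overlap for 5 of the 21 genes, against 26.0% of all genes tested, and the median log2 fold change was 0.171 against -0.023. Of the 12 genes called with time in HA and not in IgG, 7 did not pass the filter on low counts in IgG. They were Sema4b, Sema6b, Sema7a, Unc5b, Epha4, Epha7 and Efna2. For Epha7, Efna2 and Sema7a the IgG CPM did not overlap between the times, with the same direction as in HA. Epha7 had 9, 15 and 21 counts in IgG T0 and 1, 0 and 1 in IgG T3. Its pooled ratio of T0 over T3 was 4.27 (exact counting interval 1.11 to 36.3). Efna2 was at 14.0 to 20.6 and 0 to 12.1 CPM, and Sema7a at 5.14 to 5.43 and 12.1 to 54.3 CPM. The IgG CPM of Sema4b, Sema6b, Unc5b and Epha4 overlapped. A missing test in IgG thus does not limit a difference to HA.

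**Figure D4:**
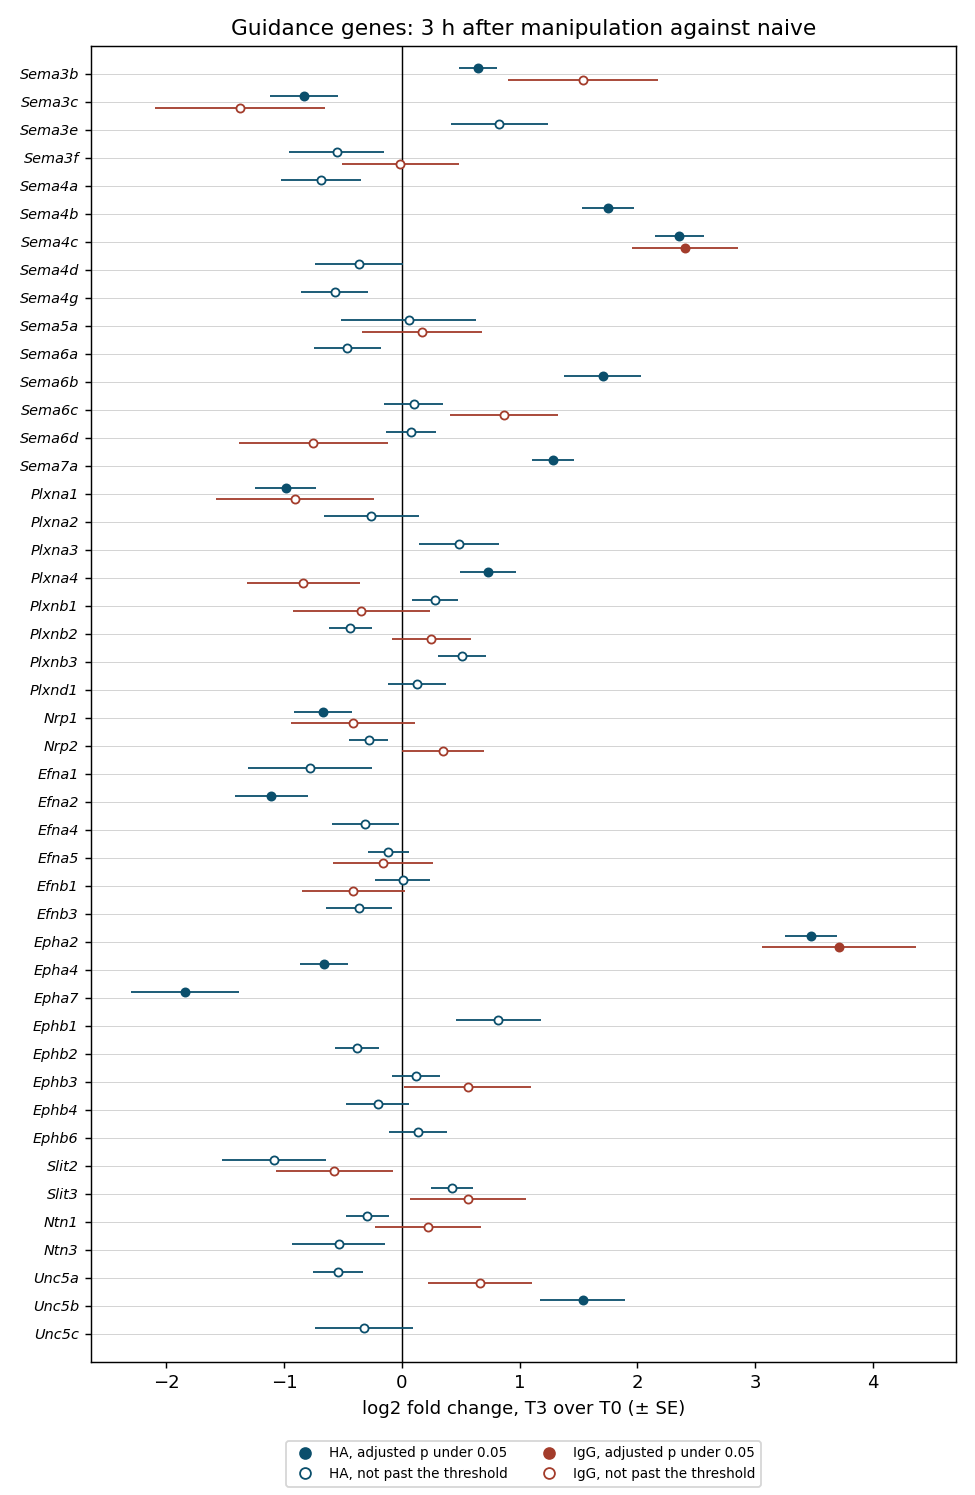
Log2 fold change of T3 over T0 (± SE, n = 3 libraries a group) of each tested guidance gene in HA (blue) and IgG (red), filled where the edgeR adjusted p was under 0.05. Epha2 and Sema4c are far to the right with both antibodies, and the IgG error bars are wider.

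Whether the difference with time depended on the antibody was tested as an interaction over all 12 libraries. None of 47 guidance genes tested was called, against 0.33% of all 10314 genes tested (34 genes, 0.301% higher and 0.0291% lower). At an unadjusted edgeR p under 0.05 there were 5 of the 47, Plxna4, Sema4b, Sema4g, Ntn3 and Unc5a. This is a similar share to the 1081 of all 10314 genes tested, so it is no result about the guidance genes. DESeq2 and the fit with the animal as a block called none of the guidance genes. Plxna4 came closest (log2 interaction 1.66 ± 0.53 SE, edgeR adjusted p = 0.236). Its libraries were at 38.0 ± 3.44 CPM in HA T0, 52.5 ± 16.3 in HA T3, 45.9 ± 7.21 in IgG T0 and 26.6 ± 6.52 in IgG T3. Unc5a was at 179.9 ± 34.0, 104 ± 27.9, 31.5 ± 7.79 and 53.3 ± 13.0 CPM in the same order (log2 interaction -1.11 ± 0.47 SE, edgeR adjusted p = 0.406). Without the IgG T3 library of animal 4, Sema3b was called (log2 interaction -1.49, edgeR adjusted p = 0.0238, and 0.743 with all libraries). The IgG T3 libraries kept, of animals 1 and 3, held glial markers at 1112 and 913 CPM, against 245 CPM in animal 4. Whether glial RNA in these control libraries had a part in this call was not tested. For Epha2 and Sema4c the interaction was -0.21 ± 0.56 and 0.05 ± 0.47 (SE) on the log2 scale.

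Of the 23 genes called in no comparison, 14 reached a group mean of at least 10 CPM. Among these the semaphorins ranged over their 12 libraries from 0 to 247 CPM (Sema4d), 5.15 to 44.3 (Sema4g), 18.0 to 56.3 (Sema6c) and 0 to 94.4 (Sema6d). The plexins Plxna2 and Plxnd1 ranged from 0 to 22.7 and from 10.9 to 36.2 CPM. The ephrins Efnb1 and Efnb2 ranged from 22.7 to 96.0 and from 0 to 24.1 CPM, and the Eph receptors Ephb1 and Ephb4 from 0 to 12.5 and from 0 to 65.2 CPM. Slit1 ranged from 1.56 to 21.7 CPM, Robo1 from 0 to 23.2, Ntn3 from 0 to 13.7 and Unc5c from 0 to 30.9. Slit1 and Robo1 passed the filter on low counts in no comparison, so they were never tested. The 3′ windows of Ephb1 and Ephb4 overlap the genes 9630041A04Rik and Zan on the opposite strand, and that of Ntn3 overlaps Tbc1d24 on the same strand, so their reads may not be separable. These highest values lay in IgG libraries, in which 1 count stands for 0.775 to 11.3 CPM, for all but Sema6d and Ephb1. Efnb1 was called lower in HA T0 (0.0357) and Sema6d higher (0.0329) with the animal as a block, by edgeR adjusted p, against 0.0905 and 0.0628 without it. The 9 other genes, Epha1, Epha3, Epha8, Plxnc1, Robo4, Sema3d, Sema3e, Sema4f and Unc5d, stayed under a mean of 10 CPM in every group, and the 3′ windows of Epha1 and Plxnc1 overlap the genes Zyx and Cep83 on the opposite strand. Among these 9, only Robo4 and Sema3e were tested, each in 1 comparison.

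Other genes of the guidance pathways were counted from 6 lists with 75 genes, of which 68 were in the files. In HA against IgG at T0, 10 of 59 tested were higher and 10 lower, with a median log2 fold change of -0.261. Of all genes tested, 16.0% were higher and 14.4% lower, which is close to these shares. L1cam, a cell adhesion molecule and semaphorin co-receptor, was at 513 ± 49.1 CPM in HA and 73.0 ± 12.7 CPM in IgG (log2 fold change 2.75, edgeR adjusted p = 4.52e-07), and Gpc1, a heparan sulphate proteoglycan that binds Slits, was at 468 ± 98.2 and 68.6 ± 31.9 CPM (log2 fold change 2.74). Dpysl4, of the collapsin response mediator family downstream of semaphorins, had a log2 fold change of 2.44. By list, 3 were higher and 1 lower of 10 other receptors and co-receptors, 1 and 5 of 16 semaphorin and plexin signalling genes, 1 and 1 of 9 ephrin and Eph signalling genes, 2 and 1 of 6 Slit and Robo signalling genes, 2 and 1 of 8 netrin signalling genes, and 1 and 1 of 10 small GTPase and cofilin effectors. At T3, 7 of 48 tested were higher and 8 lower (median -0.014), against 11.8% and 10.2% of all genes tested. The called pathway genes included Gpc1 (2.08), L1cam (2.10) and the Bmp co-receptor and neogenin ligand Rgma (-1.65).

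With time in HA, 13 of 53 tested pathway genes were higher and 8 lower (median log2 fold change 0.144), against 18.7% and 15.1% of all genes tested. Rnd1, a small GTPase that binds plexins, was at 2.13 ± 1.81 CPM at T0 and 45.0 ± 7.44 CPM at T3 (log2 fold change 4.58 ± 0.39 SE, edgeR adjusted p = 2.01e-08). It was also higher in IgG, at 1.55 ± 2.69 and 137.9 ± 50.2 CPM (log2 fold change 5.56, edgeR adjusted p = 0.000104). Rnd1 was the only call among the 32 pathway genes tested there, where 5.46% of all genes tested were called. Ptk2, which encodes focal adhesion kinase, and Dpysl3 were higher in HA by 1.47 and 1.22 on the log2 scale, and Cdon, a co-receptor related to Boc, was lower, with a log2 fold change of -1.11. No pathway gene was called for the interaction (63 tested, median 0.239), against 0.33% of all genes tested.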

How the data were processed

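Libraries came from bulk MARS-seq, a 3′ protocol with UMIs, in pools of up to 8 samples, and the labels do not say which samples shared one. Reads were trimmed by the authors (cutadapt), aligned to mm10 with STAR 2.4.2a and a Gencode annotation given as version 10, and reduced to unique alignments. UMIs were then counted by HTSeq in a window around each 3′ end, reaching 1000 bases upstream and 100 bases downstream. The deposited values are these counts, whole numbers per gene without normalisation, while the DESeq2 1.26.0 normalisation named in the labels was not used here. Use of the strand in counting is not stated, and the 3′ windows of 7 of the 58 members overlap another gene in Gencode M21, from which coordinates were taken.

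Groups were read from the sample titles. Each comparison was fitted on its 6 libraries (all 12 for the interaction) with edgeR 4.0.16 in R 4.3.3: filterByExpr, TMM factors, robust quasi-likelihood fit and F-test, two-sided, with Benjamini-Hochberg adjustment over all genes tested and a threshold of 0.05. The SE given with a log2 fold change is its absolute value divided by the square root of the F statistic, since this test returns no SE. CPM used total counts. Alternatives were RLE factors, total counts as scaling, no filter, at least 5 counts in 1 library, DESeq2 1.42.0 (an adjusted p of NA stays NA), all 12 libraries in one fit, the animal as a block, and each library left out. HA and IgG libraries with the same number and time came from one homogenate: the deviations of their genes from the group means correlated at 0.14 to 0.326 within an animal, against at most 0.015 between animals. The main fits of HA against IgG and of the interaction did not use this pairing. Animals differed between T0 and T3, so that comparison has no pairing. Within groups, chi-square per degree of freedom was 3.5 to 10.1 for every pair of libraries, so none was a duplicate. The code was tested on simulated data.

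Members called in any comparison are named. Values in every library are given for called members whose log2 fold change was 1 or more in size, with no overlap in CPM, up to 12 per direction by p. Other members are named with their range where a group mean reached 10 CPM, and pathway genes up to 4 per comparison by p, of which 1 is not reported here. The floor was 3 counts, and intervals and floors cover counting error only. The members and all gene lists were chosen with earlier results of these data known.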

Additional observations from a re-analysis of the deposited data

How the results depend on the processing

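Calls kept in every alternative were 20 of 26 for HA against IgG at T0, 8 of 17 at T3, 9 of 14 for T3 against T0 in HA and 1 of 2 in IgG. Leaving out 1 library gave 21 to 30, 8 to 17, 11 to 16 and 1 to 3 calls in that order, and 0 to 1 for the interaction. Counts with the animal as a replicate block were 28 at T0, 15 at T3 and 0 for the interaction, and the calls it changed, Efna5 and Unc5a at T3 and Efnb1 and Sema6d at T0, are given with those genes. Over all genes tested, the block called 3807 of 9823 at T0, 1608 of 7200 at T3 and 158 of 10314 for the interaction. Without it these numbers were 2980, 1578 and 34, from which the shares of all genes above were taken. For T3 against T0 in IgG the count was 4 without the filter on low counts and 4 with all 12 libraries in one fit. For T3 against T0 in HA, all 12 libraries in one fit gave 10 calls, and total counts as scaling 20, with 6 higher and 14 lower. Sema4d at T0 was not called with all libraries (log2 fold change -1.47) and was called higher at 1.40 (edgeR adjusted p = 0.0481) without the IgG library of animal 1. Other results that were not called also changed sign in some alternatives, among them HA against IgG at T3 for Sema6b (-1.18 to 1.04), Plxna1 (-0.56 to 1.22) and Sema3c (-0.78 to 1.98), as ranges of log2 fold change. The causes of these changes were not tested.

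Depth limits the IgG T3 libraries most, where 3 counts stand for 12.1 to 34.0 CPM and 25 of the 58 genes were at or under 3 counts throughout. Each group holds 3 animals, and the labels do not name the libraries that shared a pool.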

Other observations

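The IgG T0 library of animal 1 stood apart in a few guidance genes. Sema4d, a transmembrane semaphorin and ligand of Plxnb1, was at 247 CPM there (96 counts) against 8.57 and 12.4 CPM in the other IgG T0 libraries, 44.9, 22.9 and 18.5 CPM in HA T0 and 14.0 to 26.5 CPM in HA T3. The same library held 23.2 CPM of Robo1 (9 counts), 30.9 CPM of Unc5c (12 counts) and 20.6 CPM of Unc5d (8 counts), against at most 6.98, 3.43 and 3.43 CPM in the other IgG T0 libraries. The neuronal markers summed to 3555 CPM in it and to 1596 and 2523 CPM in the others. Without it, Unc5c was called higher in HA at T0 (log2 fold change 2.07, edgeR adjusted p = 0.0491). Whether neuronal RNA had a part in these values was not tested.

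Several ligands had receptors of the same system in HA T0 libraries. Ntn1 and Unc5a were both called higher in HA T0, as were Efnb3, Ephb2 and Ephb3, and Efna5 and Epha4. In contrast, Sema5a was lower and Plxnb3 higher, Efna1 lower and Epha2 higher, and Sema3f lower and Nrp2 higher. These pairs do not stand for all members of a class. Sema3b, of the same class as Sema3f, and Efna4 and Efna5, of the same class as Efna1, were called higher in HA T0. Efnb1, Unc5b and Unc5c were not called there, at log2 fold changes of -0.59, -0.70 and 0.10. The pairs are textbook ligand and receptor pairs set side by side after their values were seen, and no test of pairs was made.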
